A study of Homo sapiens with 14 samples.

Results

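Short interspersed elements (SINEs) are the shortest and most numerous retrotransposons of the human genome, and RNA can be read from either strand of a copy. Antisense SINE transcription is RNA whose strand is opposite to that of the element. The members were all rows of the deposited table of transposable element (TE) counts whose transcript strand differed from the strand of a SINE copy. There were 334948 such copies among 1278996 copy and strand combinations with signal in at least 1 library. For comparison, 289672 SINE copies had sense signal, and 230649 LINE copies and 79225 LTR copies had antisense signal.

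PolyA-selected RNA was sequenced from A375 cells, a human melanoma line, in 14 libraries of 5 groups that differ in ZC3H18 (Z18). The bulk CRISPR cells (3 libraries) were transiently transfected with a vector for Cas9 and a Z18 guide, and the bulk control cells (3 libraries) with the Cas9 vector without a guide. Both were selected with puromycin and are uncloned, so the edited pool may hold unedited cells. The other groups were clones grown from single cells: Z18 trunc/+ clones with 1 truncated allele (3 libraries), Z18 -/+ clones with heterozygous loss of function (3 libraries) and Z18 WT clones (2 libraries). Each clone gave 1 library, and 1 of the trunc/+ clones was made by homology-directed repair whereas the others carry different truncating mutations. Where clones differ, genotype and clone history cannot be told apart, and in the bulk libraries fewer cells with an RNA and less of that RNA per cell cannot be told apart. The p-values measure the spread between these libraries.

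Alu elements descend from the 7SL RNA of the signal recognition particle, are specific to primates and end in an A-rich tail, so an antisense Alu opens with a run of U. That run, followed by a sequence that resembles a splice acceptor, can be read as a cryptic exon, and HNRNPC is known to bind it in place of the splicing factor U2AF. MIR elements are older, derive from tRNA and are shared among mammals. Z18 joins the nuclear cap-binding complex to the exosome adaptors NEXT and PAXT, which degrade unspliced and prematurely polyadenylated nuclear RNA.

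The MIR3 copy in an exon of LINC00973 (chr3:98982456-98982586, plus strand) is printed here as the transcript reads it, 5′ to 3′, from the hg38 reference, with the longest run of T in capitals. It is shown as a member of the older family, whose antisense signal is described further on, and was the second of the copies outside RefSeq genes by mean signal.
MIR3 in LINC00973: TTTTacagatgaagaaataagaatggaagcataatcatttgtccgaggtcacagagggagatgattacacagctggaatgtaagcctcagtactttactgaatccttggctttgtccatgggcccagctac

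A run of 8 T (TTTTTTTT, transcript strand only) was found in 64.1% of 282445 antisense Alu copies, and in 59.4% within the first 60 bases. Of 233804 sense Alu copies, 0.493% had it. The longest T run had a median of 10 bases in antisense Alu copies and 3 in sense Alu copies. The reverse held for AAAAAAAA, present in 0.455% of antisense Alu and 63.9% of sense Alu copies, and for the polyadenylation hexamer AATAAA, present in 0.265% of antisense Alu and 19.2% of sense Alu copies. MIR copies showed little of this asymmetry: TTTTTTTT was in 1.33% of 50954 antisense and 1.16% of 54416 sense copies, and AATAAA in 6.36% of antisense and 13.8% of sense copies. The T run was in 58.2% of the 4055 antisense Alu copies seen in all 14 libraries and in 67.0% of the 153189 seen in 1 library.

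Alu made up 283196 (84.6%) of the antisense SINE copies, in 51 subfamilies with a median length of 298 bases and a median divergence from consensus of 11.6%. MIR made up 51003 (15.2%), in 5 subfamilies with a median length of 160 bases and a divergence of 28.8%. The remaining families were small, with 424 tRNA-RTE, 155 tRNA, 135 5S-Deu-L2 and 35 tRNA-Deu copies. Of the antisense Alu copies, 24.3% had a sense Alu of the same transcript strand within 1000 bases, a geometry that could fold into double-stranded RNA in 1 transcript. Sense Alu copies had such a sense neighbour in 40.4% of 234459 cases. Neighbours were counted over all libraries together, so they need not share a library or a transcript. In 18.2% of the antisense SINE copies the same copy also had sense signal.

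Most antisense SINE copies lay inside genes on the strand of the gene. By the RefSeq gene spans of the deposited tables, 191819 copies (57.3%) were transcribed in the direction of a gene around them, 40032 (11.95%) lay inside a gene only of the opposite strand, and 103097 (30.8%) lay outside gene spans. Of those outside, 13710 had their midpoint within 5 kb past a gene end, 7722 pointed away from a gene start within 5 kb, and 81665 were distal. By GENCODE, 201125 lay in introns, 8653 in noncoding exons, 7575 in UTRs, 514 in coding exons and 117081 had no gene on their strand.

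Broadly and narrowly seen copies differed in place. In 1 library only were 179549 copies (53.6%), of which 52.3% were intronic, 46.1% had no gene on their strand and 0.429% were in UTRs. In all 14 libraries were 4701 copies, of which 48.4% were in UTRs, 13.0% in noncoding exons and 29.0% in introns. Signal was concentrated: the top 100 copies held 12.9% of the mean antisense SINE counts per 1000000 aligned fragments (CPM), the top 1000 held 34.8%, and 3604 copies held 50%.

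The libraries held 15615675 to 33018360 aligned fragments, and TE counts came to 6.92 to 10.7% of that number. Bulk control 3 and bulk control 2 stood apart and had the lowest depths with -/+ clone 2. The opposite-strand share of counts at LTR, LINE and DNA copies inside genes of 1 strand was 10.8% in bulk control 3 and 6.49 to 7.79% elsewhere, and 42994 antisense SINE copies were seen in bulk control 3 alone. Z18 had 10.4, 11.9 and 12.8 FPKM in bulk CRISPR and 38.1, 13.9 and 48.7 in bulk control, with control 2 near the edited cells (difference of log2(FPKM + 1) -1.28, limma adjusted p = 0.176). It had 14.3, 13.98 and 8.70 FPKM in trunc/+, 16.2, 17.1 and 16.1 in -/+ and 23.5 and 22.0 in WT clones (-0.86 for trunc/+ against WT, limma adjusted p = 0.536). Of melanocyte markers, MLANA and TYR were at 0 in all 14 libraries, whereas SOX10, the neural crest factor of melanocytes, had 10.8 to 212 FPKM.

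Antisense reads made up less of all SINE counts than sense reads in 13 of 14 libraries, bulk control 3 being the other. The antisense share was 40.9, 44.7 and 44.7% in bulk CRISPR and 43.7, 33.5 and 54.3% in bulk control. It was 47.4, 47.6 and 48.0% in trunc/+, 48.0, 47.5 and 47.5% in -/+ and 46.8 and 47.7% in WT clones. The clones lay in a narrow band, whereas bulk control 2 was the lowest and bulk control 3 the highest of the 14 libraries. Bulk CRISPR averaged 43.4 ± 2.16% and bulk control 43.8 ± 10.4% (SD, n = 3 each), a difference of -0.43 points (two-sided exact permutation test, p = 1). LINE copies stood out in the same library: their antisense share was 67.1% in bulk control 3 and 44.3 to 49.8% in the others.

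**Figure D1:**
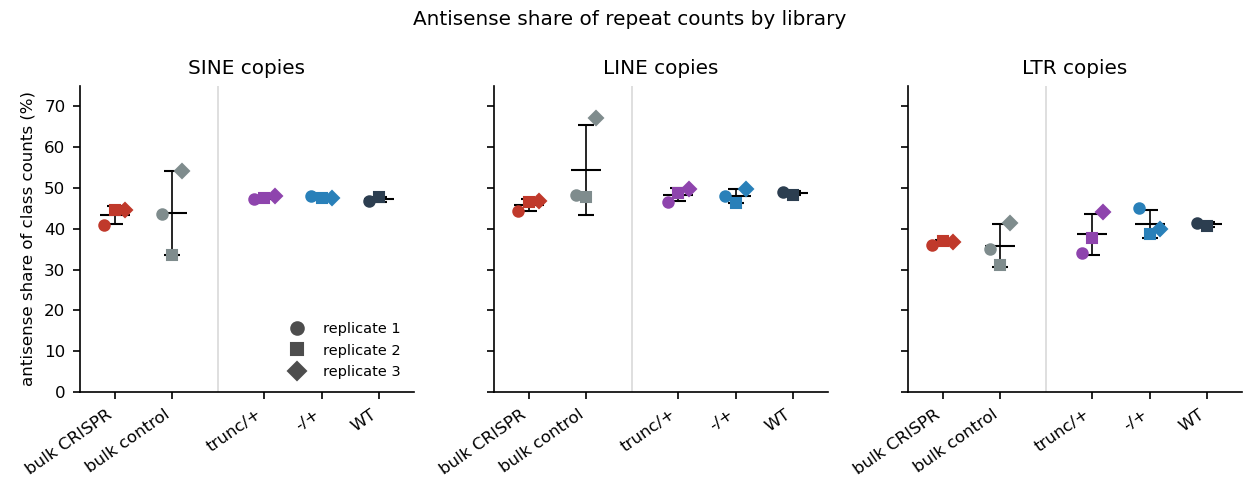
Antisense share of counts in percent (vertical axis) in each library, by group. SINE shares of the 8 clones lie between 46.8 and 48.0%, whereas bulk control 2 (33.5%) and bulk control 3 (54.3%) lie at either end.

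In bulk control 2 the low share came from the sense strand. Its sense SINE signal was 29161 CPM, the highest of the series, and its antisense signal was 14716 CPM, beside 14444 CPM in bulk CRISPR 2, the next lower library. In bulk control 3 the antisense signal itself was high, at 25318 CPM, against 12777 to 14716 CPM in the other 13 libraries.

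Antisense SINE signal outside genes followed the same split. Outside gene spans it was 1828, 1945 and 1654 CPM in bulk CRISPR and 1670, 2433 and 5920 CPM in bulk control. Against the strand of a gene it was 590, 621 and 546 CPM in bulk CRISPR and 521, 798 and 2130 CPM in bulk control. Bulk control 3 was the highest in both places, and bulk control 1 lay within or below the CRISPR cells. The share on the gene strand was 83.0, 82.2 and 83.6% in bulk CRISPR and 82.9, 78.0 and 68.2% in bulk control, and 81.5 to 85.5% in the clones.

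The excess in bulk control 3 was spread over many faintly covered copies. Introns held 11045 CPM there and 3974 to 5942 CPM in the other libraries, and copies with no gene on their strand held 6378 CPM there, 2328 CPM in bulk control 2 and 1170 to 1841 CPM in the rest. UTR copies did not show it, at 5010 to 6504 CPM over all 14 libraries. Copies with at most 5 counts held 43.7% of the antisense SINE counts of bulk control 3, 34.8% of those of bulk control 2 and 21.6 to 33.1% elsewhere. Copies with over 50 counts held 5562 CPM in bulk control 3, inside the range of 4410 to 6020 CPM of the series. In total 98502 copies had signal in bulk control 3 and 39813 to 70218 in each of the others. The part of the low depth and of the opposite-strand share of bulk control 3 in these values was not tested.

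**Figure D2:**
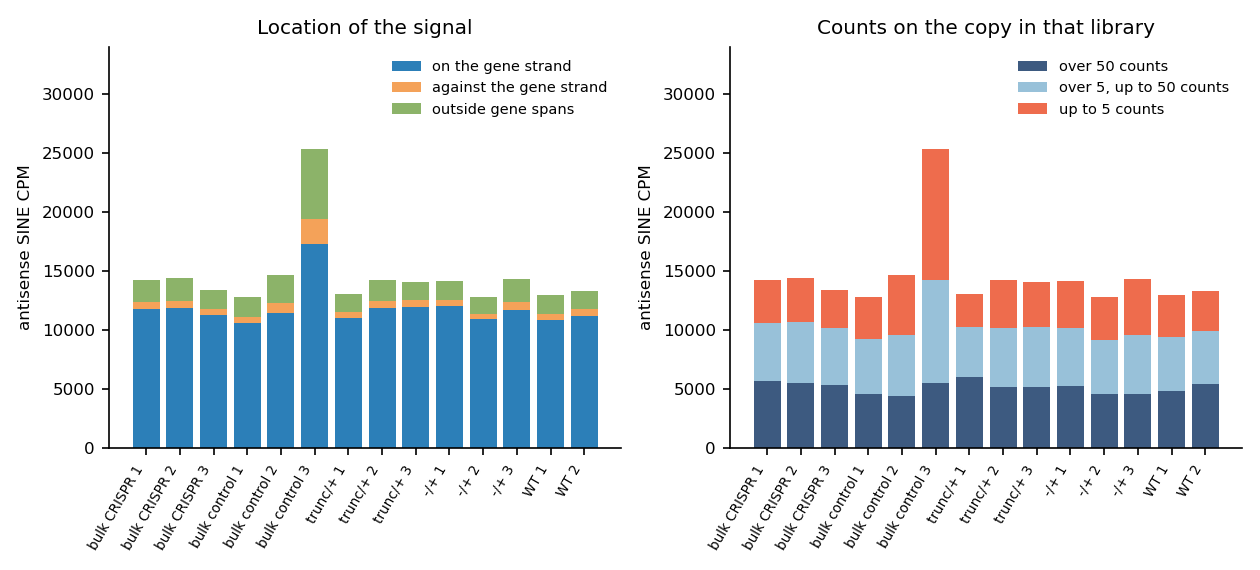
Antisense SINE signal in CPM (vertical axes) in each library, split by place (on the gene strand, against it or outside gene spans) and by the count of the copy. Signal outside gene spans reaches 5920 CPM in bulk control 3 and at most 2433 CPM elsewhere. Copies with over 50 counts hold 5562 CPM in bulk control 3, inside the range of 4410 to 6020 CPM of the series.

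In bulk CRISPR against bulk control, antisense MIR signal was higher in every CRISPR library than in every control, while antisense Alu signal overlapped. This was not particular to the antisense strand or to MIR. Sense MIR signal did not overlap either, with at least 2913.5 CPM in bulk CRISPR and at most 2836 CPM in bulk control. Antisense LTR signal was separate in the same way, with at least 3568 CPM in bulk CRISPR and at most 3366 CPM in bulk control. Antisense signal at DNA transposon copies was separate too (at least 2864 against at most 2616 CPM), whereas antisense LINE signal overlapped. Antisense MIR had 2389, 2509 and 2391 CPM in bulk CRISPR and 2109, 1254 and 1442 CPM in bulk control. The means were 2430 ± 68.6 CPM in bulk CRISPR and 1602 ± 449 CPM in bulk control (SD, n = 3 each; log2 difference 0.64; two-sided exact permutation p = 0.1, the smallest that 3 against 3 allows, and 0.571 adjusted over 10 measures). Alu had 11775, 11868 and 10981 CPM in bulk CRISPR and 10666, 13427 and 23841 CPM in bulk control (-0.38, exact p = 0.4). The MIR difference was 0.20 when bulk control 1 was the only control. Bulk control 1 was the closest of the 3 controls to the CRISPR cells in both families.

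The summed antisense SINE signal did not differ beyond the spread of the controls. It averaged 14042 ± 526 CPM in bulk CRISPR and 17621 ± 6732 CPM in bulk control (-0.26, exact p = 0.7). Outside genes it averaged 1809 ± 146 CPM in bulk CRISPR and 3341 ± 2266 CPM in bulk control (-0.68, exact p = 0.3). Relative to antisense LTR signal, SINE signal was 3.795 ± 0.174 times as high in bulk CRISPR and 6.26 ± 2.19 times in bulk control (-0.65, exact p = 0.2). The small families leaned the same way as MIR. The 5S-Deu-L2 family had 26.4, 22.5 and 25.1 CPM in bulk CRISPR and 18.5, 10.95 and 7.94 CPM in bulk control. The tRNA-RTE family had 33.0, 32.8 and 36.7 CPM in bulk CRISPR and 25.5, 19.96 and 21.6 CPM in bulk control, with no overlap in either. The tRNA family was barely separate (at least 9.56 against at most 9.45 CPM), and tRNA-Deu, at no more than 1.39 CPM, overlapped. Of all TE subfamilies, 25.9% were higher in bulk CRISPR without overlap.

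**Figure D3:**
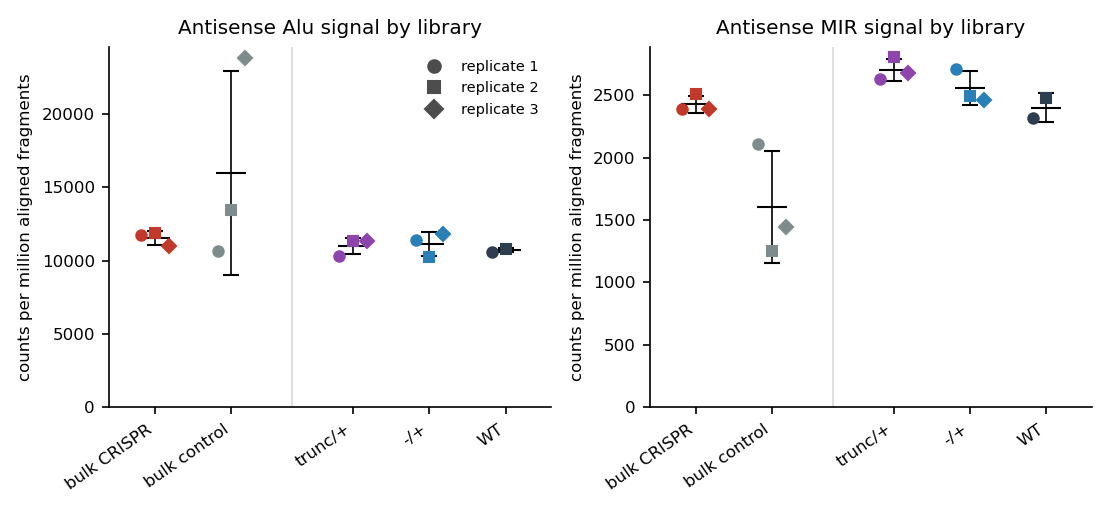
Antisense Alu and antisense MIR signal in CPM (vertical axes, each with its own scale) for each library, with group means. All 3 bulk CRISPR libraries exceed all 3 bulk control libraries for MIR (lowest 2389 against highest 2109 CPM), whereas for Alu the controls run from 10666 to 23841 CPM around the CRISPR cells.

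Other features moved with the bulk groups. Of 8 epithelial markers, 3 (KRT7, KRT8 and KRT18) were lower in every bulk CRISPR library, and the list summed to 416 to 542 FPKM in bulk CRISPR and 718 to 1110 FPKM in bulk control. Of 8 melanocyte markers, 2 (SOX10 and DCT) were higher in every bulk CRISPR library, with sums of 32.9 to 39.4 FPKM in bulk CRISPR and 13.99 to 29.8 FPKM in bulk control. DCT was near the floor, with at most 0.1645 FPKM in any library and 0 in 7 of 14. Of 7 fibroblast markers, 2 (LUM and FAP) were higher, with sums of 7.59 to 9.06 FPKM in bulk CRISPR and 2.61 to 3.36 FPKM in bulk control. None of 6 haematopoietic markers was separated. PTPRC was at 0 in 13 of 14 libraries, whereas CD68 (13.65 to 70.3 FPKM) and LYZ (0.575 to 7.54 FPKM) were above 0 in all 14. The part of these cell differences in the SINE values was not tested.

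Of 1874 TE subfamilies and strands tested in the bulk libraries, edgeR called 0 at an adjusted p under 0.05 (0% of all), so none of the 59 antisense SINE subfamilies passed. At an unadjusted p under 0.05, 6 of them were higher (10.2%, where 13.6% of all subfamilies were) and 10 lower (16.9%, where 3.04% were), and DESeq2 called 1 (1.69%, where 0.534% of all were). The fitted log2 difference was positive in 5 of 5 MIR subfamilies (median 0.64, range 0.53 to 0.80) and in 5 of 50 Alu subfamilies (median -0.57), whereas over all subfamilies it was positive in 1342 of 1874 (median 0.32). By age, the median was -0.76 for the young AluY, -0.56 for AluS and -0.14 for the old AluJ. With TMM scaling the median of all subfamilies was -0.04, the Alu median -0.97 and the MIR median 0.30, so that the order of the families stayed and neither direction turned. With bulk control 1 as the only control, however, 42 of 50 Alu subfamilies were positive (median 0.15), so the Alu direction rested on bulk controls 2 and 3.

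The most abundant antisense subfamilies were AluSx, AluSx1, AluJb, AluSz, MIRb, AluY, AluSq2, AluJr, AluSp and AluJo. AluSx, the leading one, had 1333 ± 48.3 CPM in bulk CRISPR and 1768 ± 746 CPM in bulk control (SD, n = 3 each; -0.41). The 9 Alu among these ran from -0.72 (AluSp, 661 CPM in bulk CRISPR and 1088 CPM in bulk control) to -0.09 (AluJo, 649 CPM in bulk CRISPR and 688 CPM in bulk control). MIRb was the exception, with 844 ± 31.3 CPM in bulk CRISPR and 584 ± 156 CPM in bulk control (0.53 ± 0.279 SE, edgeR adjusted p = 0.336). Among the less abundant, MIR1_Amn had 57.0 ± 0.352 CPM in bulk CRISPR and 32.8 ± 13.5 CPM in bulk control (0.80), AmnSINE1 had 24.7 ± 1.97 CPM in bulk CRISPR and 12.5 ± 5.43 CPM in bulk control (0.98), and the young AluYa5 had 10.4 CPM in bulk CRISPR and 21.5 CPM in bulk control (-1.04). These 3 had an edgeR adjusted p of 0.274.

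In the bulk libraries 9 of 59 antisense SINE subfamilies (15.3%) were higher in all CRISPR than in all control libraries, where 25.9% of all subfamilies were. Lower without overlap were 3 of 59 (5.08%), where 2.03% of all were. The 9 held all 5 MIR subfamilies and 1 of 50 Alu subfamilies, and the 3 were Alu. Without bulk control 1, edgeR called 7 antisense SINE subfamilies higher and 7 lower (11.9% each), where it called 10.8% of all subfamilies higher and 1.94% lower: all 5 MIR, AmnSINE1 and LFSINE_Vert were higher in bulk CRISPR, and AluYa5, AluYb8, AluYb9, AluYc, AluYc3, AluYk3 and FAM were lower.

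Among single copies MIR again lay above Alu, but as scaled here Alu copies did not lean lower as the Alu subfamilies did. Of 24315 TE copies tested in the bulk libraries, 4965 were antisense SINEs, and edgeR called 0 of them (0% of all copies). At an unadjusted p under 0.05, 262 were higher (5.28%, where 7.93% of all copies were) and 249 lower (5.02%, where 3.85% were). DESeq2 on the aligned sizes called 16 higher (0.322%, where 0.563% of all were) and 29 lower (0.584%, where 0.457% were). The median log2 difference was 0.79 over 820 MIR copies (652 positive) and 0.05 over 4118 Alu copies (2135 positive), beside 0.34 over all copies tested. It was 0.63 over 3228 antisense LINE copies, 0.60 over 1097 antisense LTR copies and -0.14 over 6957 sense SINE copies. With TMM scaling the median of all copies shifted to 0.04, the MIR median to 0.51 and the Alu median to -0.27, so the direction for Alu copies, and for antisense SINE copies together (0.17 as scaled here and -0.14 with TMM), depended on the scaling. By place, copies in UTRs had a median of 0.39 (2406 copies) and copies in introns -0.21 (1384 copies). Without bulk control 1, edgeR called 81 higher and 76 lower copies, of which 52 and 1 were MIR and 27 and 75 were Alu. These were 1.15% and 1.08% of the antisense SINE copies tested, where 1.86% of all copies were called higher and 0.75% lower. Without bulk control 3 it called 1.

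The antisense SINE subfamily with the smallest p in the bulk comparison was FAM, a fossil Alu monomer, and 1 copy carried most of the difference. FAM had 28.3, 26.0 and 24.2 CPM in bulk CRISPR and 133, 222 and 64.2 CPM in bulk control (-2.42 ± 0.405 SE, edgeR adjusted p = 0.0675). A copy in the UTR of IFI6, an interferon-induced mitochondrial protein, at chr1:27666137-27666312 (transcript on the minus strand) had 6.44, 4.84 and 4.31 CPM in bulk CRISPR and 111, 209 and 35.03 CPM in bulk control. Every control was above every CRISPR library, and the 8 clones had 2.76 to 8.72 CPM. The other FAM copies together had 21.8, 21.1 and 19.9 CPM in bulk CRISPR and 21.9, 13.1 and 29.2 CPM in bulk control, so the groups overlapped without that copy. It held 22.8, 18.6 and 17.8% of the FAM signal in bulk CRISPR and 83.6, 94.1 and 54.5% in bulk control.

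The IFI6 copy differed by -4.51 ± 0.689 SE on the log2 scale, with an edgeR adjusted p of 0.133 over all copies. Without bulk control 3 it passed (-4.95, edgeR adjusted p = 0.00116), as it did without bulk control 1 (-4.55, edgeR adjusted p = 0.029). Its host gene had 19.8, 16.7 and 17.5 FPKM in bulk CRISPR and 427, 1188 and 1424 FPKM in bulk control (-5.57, limma adjusted p = 0.00238), and 16.9 to 32.4 FPKM in the clones. Bulk control 3 had the most IFI6 FPKM and the fewest FAM counts of the 3 controls.

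**Figure D4:**
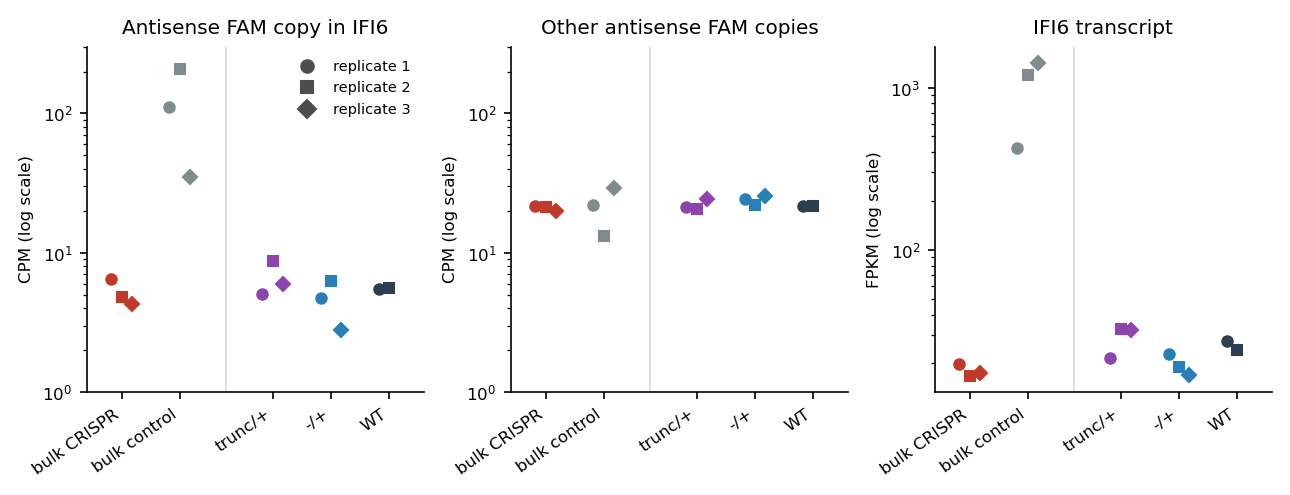
Antisense FAM signal in CPM and IFI6 expression in FPKM (vertical axes) for each library, with the IFI6 copy apart from the other FAM copies. The copy has 35.03 to 209 CPM in the bulk controls and at most 8.72 CPM in the other 11 libraries.

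The other 3 antisense copies with the smallest p in the bulk libraries did not pass either (edgeR adjusted p = 0.234 for each). A MIRb in the UTR of MAST3, a microtubule-associated serine/threonine kinase (chr19:18151225-18151399), had 1.35, 1.44 and 1.03 CPM in bulk CRISPR and 0.0375, 0.0540 and 0.128 CPM in bulk control. MAST3 itself had 2.84, 3.97 and 2.91 FPKM in bulk CRISPR and 1.77, 0.615 and 2.58 FPKM in bulk control, a smaller separation than that of the copy. An AluSp with no gene on its strand (chr11:123053999-123054308) had 1.17, 1.03 and 1.62 CPM in bulk CRISPR and 3.69, 10.3 and 9.93 CPM in bulk control. An AluSx1 in the noncoding NUP50-DT (chr22:45133424-45133733) had 0.0356, 0.0641 and 0.281 CPM in bulk CRISPR and 0.638, 3.02 and 4.93 CPM in bulk control. Of these 3, the MIRb was higher and both Alu copies were lower in the edited cells, without overlap, and each passed in edgeR without bulk control 1.

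Among the clones, the trunc/+ clones had slightly more antisense MIR signal than WT clones, while Alu signal overlapped. MIR had 2631, 2806 and 2679 CPM in trunc/+, 2714, 2499 and 2460 CPM in -/+ and 2318 and 2483 CPM in WT clones. The trunc/+ mean of 2706 ± 90.6 CPM (SD, n = 3) was above the WT mean of 2401 ± 117 CPM (SD, n = 2) without overlap (log2 difference 0.17, exact permutation p = 0.1, the smallest possible, and 0.833 adjusted over 10 measures). It was 0.08 per 1000000 TE counts in place of aligned fragments. The -/+ clones overlapped with both (0.09 against WT, exact p = 0.4; trunc/+ against -/+ 0.08, exact p = 0.3).

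Alu averaged 10988 ± 568 CPM in trunc/+ and 10698 ± 141 CPM in WT clones (0.04, exact p = 0.6), and 11136 ± 829 CPM in -/+ clones (0.06 against WT, exact p = 0.5). Antisense SINE signal outside genes averaged 1594 ± 142 CPM in trunc/+, 1664 ± 303 CPM in -/+ and 1600 ± 1.71 CPM in WT clones, and the clone groups overlapped. The ratio of antisense SINE to antisense LTR signal was 3.58 in trunc/+ and 3.596 in WT clones. The difference between the bulk effect and the trunc/+ effect gave an exact permutation p of 0.205 to 0.845 over the 10 measures (200 assignments each, lowest adjusted p 0.412). Labels were permuted within each pair, which takes both effects as absent, so this does not test whether the effects are equal. For MIR the effects differed by 0.46 on the log2 scale (exact p = 0.285).

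No antisense SINE passed at the level of subfamilies or copies in the clones. Of 1959 TE subfamilies tested, 60 of them antisense SINEs, edgeR called 0 in any of the 3 comparisons (0% of all) and DESeq2 called 0 antisense SINEs, where it called 0.153% of all in trunc/+ against WT, 0% in -/+ against WT and 0.204% in trunc/+ against -/+. At an unadjusted p under 0.05, 3 were higher (5.00%, where 2.96% of all were) and 1 lower (1.67%, where 0.766% were) in trunc/+ against WT. In -/+ against WT 1 was higher (1.67%, where 1.28% were) and 0 lower (where 0.51% were), and in trunc/+ against -/+ 0 were higher (where 1.84% were) and 1 lower (1.67%, where 1.79% were). All 5 MIR subfamilies were positive in trunc/+ against WT (median 0.20, range 0.15 to 0.26), MIR3 with 557 CPM in trunc/+ and 485 CPM in WT clones (0.20 ± 0.075 SE, edgeR adjusted p = 0.99). They were positive in -/+ against WT too (median 0.08), but with TMM scaling 2 of 5 were (median -0.02).

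In the clones the subfamilies with separate groups were few. In trunc/+ against WT, 10 of 60 antisense SINE subfamilies (16.7%) were higher without overlap, where 11% of all were, and 2 (3.33%) were lower, where 6.02% were. In -/+ against WT, 8 (13.3%) were higher, where 13.4% were, and 2 were lower, where 4.24% were. In trunc/+ against -/+, 1 was higher, where 3.47% of all were, and 3 were lower, where 4.34% were.

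Of 40643 copies tested in the clones, 7808 were antisense SINEs, and edgeR called 0 (0% of all copies) in each comparison. At an unadjusted p under 0.05, 196 were higher (2.51%, where 2.72% of all copies were) and 95 lower (1.22%, where 1.46% were) in trunc/+ against WT. In -/+ against WT 94 were higher (1.20%, where 1.76% were) and 54 lower (0.692%, where 0.805% were), and in trunc/+ against -/+ 166 were higher (2.13%, where 2.03% were) and 121 lower (1.55%, where 1.89% were). DESeq2 called 1 copy in trunc/+ against WT (0.0128%, where 0.0148% of all were called) and 0 in the others. In trunc/+ against -/+, edgeR called 20 copies higher without WT clone 1 (0.15%, where 0.0975% of all copies were called) and 17 without WT clone 2 (0.128%, where 0.0771% were), when the filter kept 13371 and 13283 antisense SINE copies, and 1 copy without trunc/+ clone 2. In trunc/+ against WT the median was 0.15 over 1691 MIR copies, 0.01 over 6068 Alu copies and 0.06 over all copies. The Alu medians turned with TMM scaling, to -0.01 in trunc/+ against WT and to -0.02 in -/+ against WT, where the median as scaled here was 0.06. In trunc/+ against -/+ it was -0.04 as scaled here and 0.02 with TMM.

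In the clones, some copies with the smallest p, among them the 2 given here, lay in genes whose own level differed the same way. An AluJb in the UTR of CDCP1, a transmembrane glycoprotein (chr3:45083628-45083942), had 8.32, 5.67 and 0.960 CPM in trunc/+ and 0.289 and 0.0931 CPM in WT clones. CDCP1 had 20.4, 16.2 and 4.16 FPKM in trunc/+, 3.21, 0.546 and 3.79 FPKM in -/+ and 2.56 and 0.270 FPKM in WT clones. An AluJr in the miR-23a host transcript (chr19:13838216-13838403, minus strand) had 0.394, 2.36 and 1.14 CPM in trunc/+ and 0.201, 0.107 and 0.0913 CPM in -/+ clones. Its host had 2.81, 13.0 and 4.93 FPKM in trunc/+ and 1.29, 1.37 and 2.64 FPKM in -/+ clones. In both, trunc/+ was above the other group in every clone, for the copy and for the gene, and neither copy passed (edgeR adjusted p = 1).

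The following 8 copies also had a small p. An AluJr in an intron of ANAPC5, a subunit of the anaphase-promoting complex, had 0 CPM in the 3 -/+ clones, where 3 counts would be 0.121 to 0.160 CPM, 0.273, 0.431 and 0.711 CPM in trunc/+ clones and 0.325 and 0.341 CPM in WT clones. A MIRb in the UTR of SRSF10, a splicing factor, had 0.636, 0.251 and 0.462 CPM in trunc/+ and 1.65, 1.92 and 2.05 CPM in -/+ clones (-2.04 ± 0.487 SE). An AluY in the UTR of ZNF772, a zinc finger gene, had 1.17, 0.694 and 2.14 CPM in -/+ and 0.0722 and 0.186 CPM in WT clones. An AluJr in the UTR of KLHL21, an adaptor of cullin ubiquitin ligases, had 0.757, 1.44 and 1.25 CPM in trunc/+ and 0.108 and 0.155 CPM in WT clones. For each of these copies the groups were separate. KLHL21 itself differed the same way, with 48.6, 40.45 and 43.2 FPKM in trunc/+ and 27.3 and 23.5 FPKM in WT clones. Not all host genes did. SRSF10 had 27.6, 33.55 and 27.2 FPKM in trunc/+ and 32.2, 25.95 and 24.2 FPKM in -/+ clones, with overlap. ANAPC5 had 76.7, 58.9 and 61.1 FPKM in -/+ and 71.6 and 61.1 FPKM in WT clones, also with overlap. A MIRb in an intron of GEM, a small GTP-binding protein, had 0.303, 0.826 and 1.25 CPM in trunc/+ and 0 and 0.0310 CPM in WT clones, and 0.801 to 1.22 CPM in bulk CRISPR. An AluJb in an intron of CENPK, a centromere protein, had 0.264, 0.427 and 0.628 CPM in -/+ clones and 0 CPM in both WT clones, where 3 counts would be 0.0931 and 0.108 CPM. An AluJo in the noncoding LINC00923 had 0 CPM in the 3 -/+ clones and 0.758 and 0.558 CPM in WT clones. An AluJb on chromosome 20 in an intron of an unnamed GENCODE gene had 1.45, 0.754 and 1.25 CPM in trunc/+ and 0.217 and 0.186 CPM in WT clones. None of these 8 copies passed in edgeR.

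The antisense copies with the most counts lay mostly in exons: of the top 12, 8 were in UTRs, 2 in noncoding exons and 2 in introns. CPM of a copy are not divided by its length. The first was an AluJb in SNHG29, a noncoding host of small nucleolar RNAs (chr17:16441567-16441818), with 239, 196 and 178 CPM in bulk CRISPR and 248, 314 and 103 CPM in bulk control. It had 172, 138 and 259.2 CPM in trunc/+, 206, 178 and 183 CPM in -/+ and 203 and 220 CPM in WT clones. The groups overlapped throughout, and 96.7% of its counts were uniquely mapped. That share was lower for the 2 intronic copies, at 78.98% for the AluSp in EIF3M and 74.55% for the AluY in CCT4.

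An AluSp in an intron of EIF3M, a gene of translation initiation (chr11:32589181-32589476, plus strand), had 43.1, 43.0 and 46.8 CPM in bulk CRISPR and 48.8, 41.0 and 33.4 CPM in bulk control, and 34.5 to 56.9 CPM in the clones. An AluJo in a noncoding exon of GAS5 (chr1:173863983-173864096, minus strand) had 45.9, 44.9 and 41.6 CPM in bulk CRISPR and 40.4, 52.9 and 4.80 CPM in bulk control. Bulk control 3 alone was low there, and GAS5, a noncoding host of small nucleolar RNAs, had 226 FPKM in it. In the clones the GAS5 copy had 25.3 to 46.9 CPM.

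A FRAM, a free right Alu monomer, in the UTR of GPRC5A, a retinoic acid-induced membrane receptor (chr12:12912822-12912985), had 53.9, 48.6 and 52.1 CPM in bulk CRISPR and 48.5, 16.0 and 15.6 CPM in bulk control (0.95 ± 0.534 SE, edgeR adjusted p = 0.501). It had 55.6, 48.8 and 35.9 CPM in trunc/+, 26.3, 47.3 and 54.6 CPM in -/+ and 24.5 and 26.8 CPM in WT clones. An AluSx in the UTR of PHLDA1, a gene of the pleckstrin homology-like family (chr12:76027480-76027784), had 78.1, 41.3 and 43.2 CPM in trunc/+ and 31.0 and 33.1 CPM in WT clones (0.76). Trunc/+ was above WT in every clone for both copies, neither of which passed. An AluSq2 in the UTR of WWTR1, the transcriptional co-activator TAZ, had 12.9 to 19.5 CPM in the 6 bulk libraries and 27.4 to 70.0 CPM in the 8 clones. The others were in EIF2S3, CRTAP, CCT4, SUMF2 and MCM4, besides IFI6.

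Host genes with the most antisense SINE signal were SNHG29 (13 copies, 203 CPM), GPRC5A (19 copies, 109 CPM), EIF2S3 (17 copies, 79.8 CPM), GAS5, EIF3M, NONO, TOR1AIP2, PHLDA1, CRTAP and CCT4. In GPRC5A the sum was 134 ± 8.65 CPM in bulk CRISPR and 85.2 ± 20.1 CPM in bulk control, beside 117 FPKM of the gene in bulk CRISPR and 74.2 FPKM in bulk control. In NONO, a paraspeckle protein that binds inverted Alu RNA, it was 47.5 ± 7.11 CPM in bulk CRISPR and 22.6 ± 13.7 CPM in bulk control, beside 204 FPKM in bulk CRISPR and 144 FPKM in bulk control. Across host genes, the log2 difference of the antisense SINE sum and that of the gene correlated with r = 0.36 in the bulk comparison (2482 genes), and with 0.56, 0.31 and 0.49 in trunc/+ against WT, -/+ against WT and trunc/+ against -/+ (2531 genes). Genes are not replicates, and both quantities count reads of the same libraries.

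Outside RefSeq gene spans the top copies were an AluSp (chr4:15667776-15668057, 6.53 CPM on average, within an intron of FBXL5 in GENCODE) and the MIR3 in LINC00973 printed above. The MIR3 had 10.4, 12.5 and 8.02 CPM in bulk CRISPR and 9.56, 15.3 and 0.704 CPM in bulk control. It had 4.66, 8.58 and 0.676 CPM in trunc/+, 0.0805, 1.76 and 5.49 CPM in -/+ and 0.975 and 2.11 CPM in WT clones. Within trunc/+ and within -/+ clones its values spread over more than those of the WT clones. The others of the top 5 were an AluSp on chromosome 1, an AluSz6 in an intron of RRP36 in GENCODE and an AluSc5 on chromosome 9, the first with 5.202 and the second with 4.155 CPM on average.

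Of 53 genes that read, edit, degrade, transcribe or repress SINE RNA, 51 were expressed, and 1 passed in the bulk comparison. OAS1, a sensor of double-stranded RNA, had 4.55, 3.70 and 5.96 FPKM in bulk CRISPR and 23.7, 16.9 and 17.7 FPKM in bulk control (-1.83 ± 0.254 SE, limma adjusted p = 0.0391), where 0.347% of all genes passed. Leaving out any CRISPR library, bulk control 2 or bulk control 3, or a pseudocount of 0.1, left 0 genes of the list, and leaving out bulk control 1 gave 5. The 12 double-stranded RNA genes had a median of -0.35 (4 positive) and the 12 nuclear decay genes 0.38 (10 positive), beside 0.19 over all genes. HNRNPC had 233 FPKM in bulk CRISPR and 370 FPKM in bulk control (-0.66, limma adjusted p = 0.174), and 214 FPKM in trunc/+ and 304 FPKM in WT clones (-0.50, limma adjusted p = 0.612).

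In the clones 0 genes of the list passed in limma, where 0.00775% of all genes passed in trunc/+ against WT and in -/+ against WT and 0% in trunc/+ against -/+. In trunc/+ against WT the median was -0.24 for nuclear decay (2 of 12 positive) and -0.20 for Alu binding and splicing (2 of 14). It was 0.23 for double-stranded RNA (8 of 12), beside -0.02 over all genes. For the list of RNA polymerase III transcription of SINEs and its repression, which mixes activators and repressors, it was -0.14 (3 of 13).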

How the data were processed

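The authors trimmed polyA-selected reads (cutadapt 4.6 per the submitters' processing notes) and quantified TEs with SQuIRE on hg38 with RepeatMasker annotation. The version of SQuIRE was not given in the sources used. TE tables as deposited hold, for each copy and transcript strand, an estimated count (expected count, multi-mapped fragments shared among copies by expectation maximization) and a count of uniquely mapped fragments, with the number of aligned fragments of the library. The deposited gene tables give FPKM per RefSeq gene, from which gene spans were also taken. All 14 libraries had both tables, and 0 columns of other samples were present.

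Antisense SINE rows were summed and expressed per 1000000 aligned fragments (CPM). A copy was placed by its midpoint in RefSeq spans, leaving out 190 spans over 1 Mb (of 160 symbols, the longest 129.9 Mb) that join separate copies of a symbol, which moved 5.15% of the members outside genes. GENCODE 44 gave exons and introns, and 99.9% of 23807 uniquely placed symbols overlapped between the annotations. Sums were compared by two-sided exact permutation tests. Copies and subfamilies of all TE classes, of both strands, were tested together on expected counts rounded to whole numbers with edgeR 4.0.16 (quasi-likelihood, library size the aligned fragments, filter by expression at 10 counts) in R 4.3.3. The 6 bulk and the 8 clone libraries were fitted apart. Genes were tested with limma 3.58.1 on log2(FPKM + 1) for genes with at least 1 FPKM in as many libraries as the smallest group, and fold changes of genes are on that scale. Benjamini-Hochberg adjusted p under 0.05 was the threshold, over all features tested. The scripts were tested on simulated data. Alternatives were DESeq2 1.42.0, TMM scaling, other filters, uniquely mapped counts, per 1000000 TE counts, opposite-strand subtraction, the replicate block and leaving out each library.

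The text names the 10 subfamilies and 12 copies with the highest mean CPM, the 4 copies with the smallest p in each comparison, the 10 leading host genes, copies outside genes with the highest mean, and genes of the list that passed. Members, lists and tests were chosen with earlier results of these data known. A copy that the rule gives in trunc/+ against -/+, and some sequences, are not reported here.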

Additional observations from a re-analysis of the deposited data

How the results depend on the processing

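The spread of the bulk controls limits the bulk comparison, and 2 WT clones limit those with WT. At 15615675 to 33018360 aligned fragments, most antisense SINE copies hold a few counts, so changes of single copies were not detectable at this depth for most of them. Of the values recomputed under alternatives, 654 kept direction and, outside the sums, side of the threshold, 74 turned sign, 37 newly passed or gained calls and 7 lost calls. The smallest p of the exact tests on sums was 0.1, above the threshold of 0.05, so sums were compared by direction alone. Their side of the threshold was fixed in advance and is no measure of robustness. The causes of the changes under alternatives were not tested. Using bulk control 1 alone and keeping long spans were chosen after seeing the data.

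Only copies with at least 10 counts: Alu was -0.032 in -/+ against WT and 0.075 in trunc/+ against -/+ on the log2 scale, and MIR -0.001 in -/+ against WT. Signal against genes was -0.218 in -/+ against WT, 0.013 in bulk, 0.206 in trunc/+ against -/+ and -0.011 in trunc/+ against WT. Gene-strand signal was -0.011 in -/+ against WT and 0.064 in bulk, and SINE signal -0.027 in -/+ against WT and 0.047 in bulk. Outside signal was -0.19 in -/+ against WT, 0.22 in trunc/+ against -/+ and 0.03 in trunc/+ against WT. The antisense share was 2.89 points higher in bulk CRISPR, and the outside share 0.498 points higher in trunc/+ than in -/+. Per 1000000 TE counts, trunc/+ against WT was -0.06 for Alu, -0.064 against genes, -0.022 on the gene strand and -0.033 for SINE signal. In -/+ against WT these were -0.018, -0.025, -0.009 and -0.011, and outside signal was -0.033, and trunc/+ against -/+ was -0.012 for gene-strand and -0.022 for SINE signal.

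With opposite-strand counts taken off, the ratio of SINE to LTR was 0.014 in trunc/+ against WT, SINE signal -0.000158 and the antisense share -0.063 points in trunc/+ against -/+. With bulk control 1 alone, Alu was 0.113, SINE over LINE 0.012, against genes 0.167, gene strand 0.13, outside 0.113 and SINE 0.13, and edgeR called 28 copies (0.265%, beside 0.513% of all copies) and 1 subfamily. With long spans kept, outside signal was 0.008 in trunc/+ against WT.

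Leaving out 1 library at a time, SINE signal ran from -0.46 to 0.031 in bulk and -0.051 to 0.04 in trunc/+ against -/+. The antisense share ran from -5.58 to 4.78 points in bulk, -0.05 to 0.895 in trunc/+ against WT and in -/+ against WT, and -0.19 to 0.186 in trunc/+ against -/+. Gene-strand signal ran from -0.274 to 0.075 in bulk and -0.028 to 0.051 in trunc/+ against -/+. Outside signal ran from -0.081 to 0.029 in trunc/+ against WT, -0.095 to 0.166 in -/+ against WT and -0.175 to 0.086 in trunc/+ against -/+. The outside share ran from -1.02 to 0.491 points in -/+ against WT and -1.07 to 0.438 in trunc/+ against -/+. Signal against genes ran from -0.092 to 0.165 in -/+ against WT and -0.132 to 0.126 in trunc/+ against -/+, and Alu from -0.079 to 0.026 in trunc/+ against -/+. SINE over LINE ran from -0.062 to 0.022 in trunc/+ against WT, and SINE over LTR from -0.082 to 0.065 there, -0.106 to 0.041 in -/+ against WT and -0.012 to 0.081 in trunc/+ against -/+. Called copies ran from 0 to 157 in bulk and 0 to 20 in trunc/+ against -/+ (20 without WT clone 1 and 17 without WT clone 2, whose loss lets more copies through the filter, and 1 without trunc/+ clone 2), called subfamilies from 0 to 14 and called genes of the list from 0 to 5, both in bulk, with the highest counts without bulk control 1.

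Called copies in bulk were 45 and 88 with DESeq2 on aligned sizes and on its own size factors, and 34 with no filter. With antisense rows alone the count was 1. As shares of the copies tested, the first 3 counts were 0.906%, 1.77% and 0.108% of antisense SINEs and 1.02%, 1.60% and 0.103% of all copies. With no filter 30 were called in trunc/+ against WT (0.0786%, beside 0.136% of all copies), 2 in -/+ against WT (0.00524%, beside 0.0394%) and 38 in trunc/+ against -/+ (0.0996%, beside 0.113%), and DESeq2 called 1 in trunc/+ against WT. Called subfamilies in bulk were 1 and 2 with DESeq2, and 1 with no filter, with uniquely mapped counts and with antisense rows alone. Genes of the list called in bulk were 0 with a pseudocount of 0.1 and 0 with no filter.

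Equal replicate numbers did not show that libraries were paired: over 719 subfamilies, deviations of same-numbered libraries correlated at 0.04, -0.20 and 0.03 in bulk, 0.03 and 0.38 in trunc/+ against WT, 0.33 and 0.00 in -/+ against WT, and 0.01, -0.22 and -0.36 in trunc/+ against -/+. With the replicate block, edgeR called 1 copy and 1 subfamily and limma 2 genes of the list in bulk, the IFI6 copy was at -4.19, signal against genes was -0.092 and outside signal -0.095 in -/+ against WT, and outside signal was 0.029 in trunc/+ against WT.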
